A study of Mus musculus with 12 samples.

Results

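The muscle miRNAs described here are mmu-miR-1, mmu-miR-133a, mmu-miR-133b, mmu-miR-208, mmu-miR-208b and mmu-miR-499. They were chosen by name, as the rows that join one of these names to a 6-digit assay number, and make up 6 of the 375 miRNA assays on the card. In heart and skeletal muscle, miR-1 and miR-133a are cut from shared primary transcripts, and miR-133b comes from a locus with miR-206. MiR-208, now called miR-208a, miR-208b and miR-499 lie in the myosin heavy chain genes Myh6, Myh7 and Myh7b, and are known as regulators of myosin gene use in muscle. MiR-1 is known for a role in muscle differentiation and the miR-133 family for roles in the growth of muscle cells. All 6 are known mainly from heart and skeletal muscle, and the question asked of them was whether they vary together from array to array and whether a ligand of NOD1 or NOD2 moves them.

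RNA came from primary lung endothelial cells of male wild type C57BL/6N mice aged 6 to 10 weeks, cultured to confluence after selection with CD144 and CD31 beads, with 3 mice pooled for each isolation. All cells were starved for 2 hours and then left unstimulated (control), or given the NOD1 ligand Tri-DAP (TD in the labels) or the NOD2 ligand MDP, each at 10 μg/mL for 6 hours, with 4 arrays in each of the 3 groups. Each array is a TaqMan low-density array, which reports for every well the PCR cycle at which fluorescence crosses a threshold (Ct), so that more RNA gives a lower Ct, by 1 cycle for each factor of 2. A well without a threshold by cycle 40 is called undetermined. Levels are given on the log2 scale relative to U6, as the mean over the 4 U6 wells less the Ct of the miRNA on the same array. This reference was uneven. Its 4 wells differed little on Tri-DAP array 8 (SD 0.11 cycles) and widely on Tri-DAP array 14 (1.93) and MDP array 12 (2.05). The U6 mean lay between Ct 18.28, on Tri-DAP array 14, and 21.60, on Tri-DAP array 8. All levels relative to U6, and the differences between them, include this unevenness. The arrays measured between 231 and 254 of the 375 miRNA assays, and the plant control ath-miR159a was undetermined on all 12. The endothelial miR-126-3p was measured on all 12 arrays at a Ct from 18.6 to 20.6, and miR-126-5p from 20.1 to 22.4. The study used 4 independent cell isolations, and which arrays share one is not stated. The p-values given here thus measure the spread between arrays, which includes any spread between isolations.

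The mature sequences are shown first because they bear on what the assays can tell apart. Those of 4 members, taken from RefSeq on GRCm38.p6, are given 5′ to 3′ with the seed, bases 2 to 8, in capitals. None is given for miR-1 or miR-133a, so that miR-133a and miR-133b were not compared. How well the assays tell related members apart was not tested. The arm is the one long known by the plain name, since the card's names give no arm.
miR-133b (mmu-miR-133b-3p, chr1:20682834-20682855, plus strand): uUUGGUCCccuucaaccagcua
miR-208 (mmu-miR-208a-3p, chr14:54949072-54949093, minus strand): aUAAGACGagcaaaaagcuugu
miR-208b (mmu-miR-208b-3p, chr14:54975710-54975731, minus strand): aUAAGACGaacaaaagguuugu
miR-499 (mmu-miR-499-5p, chr2:155622893-155622913, plus strand): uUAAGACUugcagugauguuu

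MiR-208 and miR-208b share the seed UAAGACG and differ at 3 of 22 positions, counted from 1 at the 5′ end, by G10A, A16G and C18U from miR-208 to miR-208b. The seed of miR-499 holds the same 6 bases from position 2 and differs from that of miR-208 by G8U. By the gene spans in RefSeq, miR-208 lies within Myh6, miR-208b within Myh7, miR-499 within Myh7b and miR-133b within the long noncoding RNA gene Lincmd1. Of the 3 arrays on which miR-208 was measured, 2 also measured miR-208b, and the 1 array that measured miR-499 measured miR-208b and not miR-208.

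All 6 members were measured on at least 1 array and none on all 12. Of their 72 wells, 26 were measured, which is 36.1%, against 64.7% of the wells of all 375 miRNA assays. Over the card, 174 assays were measured on all 12 arrays, 55 on none and 146, or 38.9%, on 1 to 11 arrays, and all 6 members belong to the last class. MiR-1 was measured on 8 arrays, miR-208b on 7, miR-133a on 6, miR-208 on 3, and miR-133b and miR-499 on 1 each. Tri-DAP array 14 and control array 13 measured 4 members each, and control array 10 and MDP array 9 measured none. In RNA from a whole culture, fewer cells of a type and less RNA per cell cannot be told apart.

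**Figure D1:**
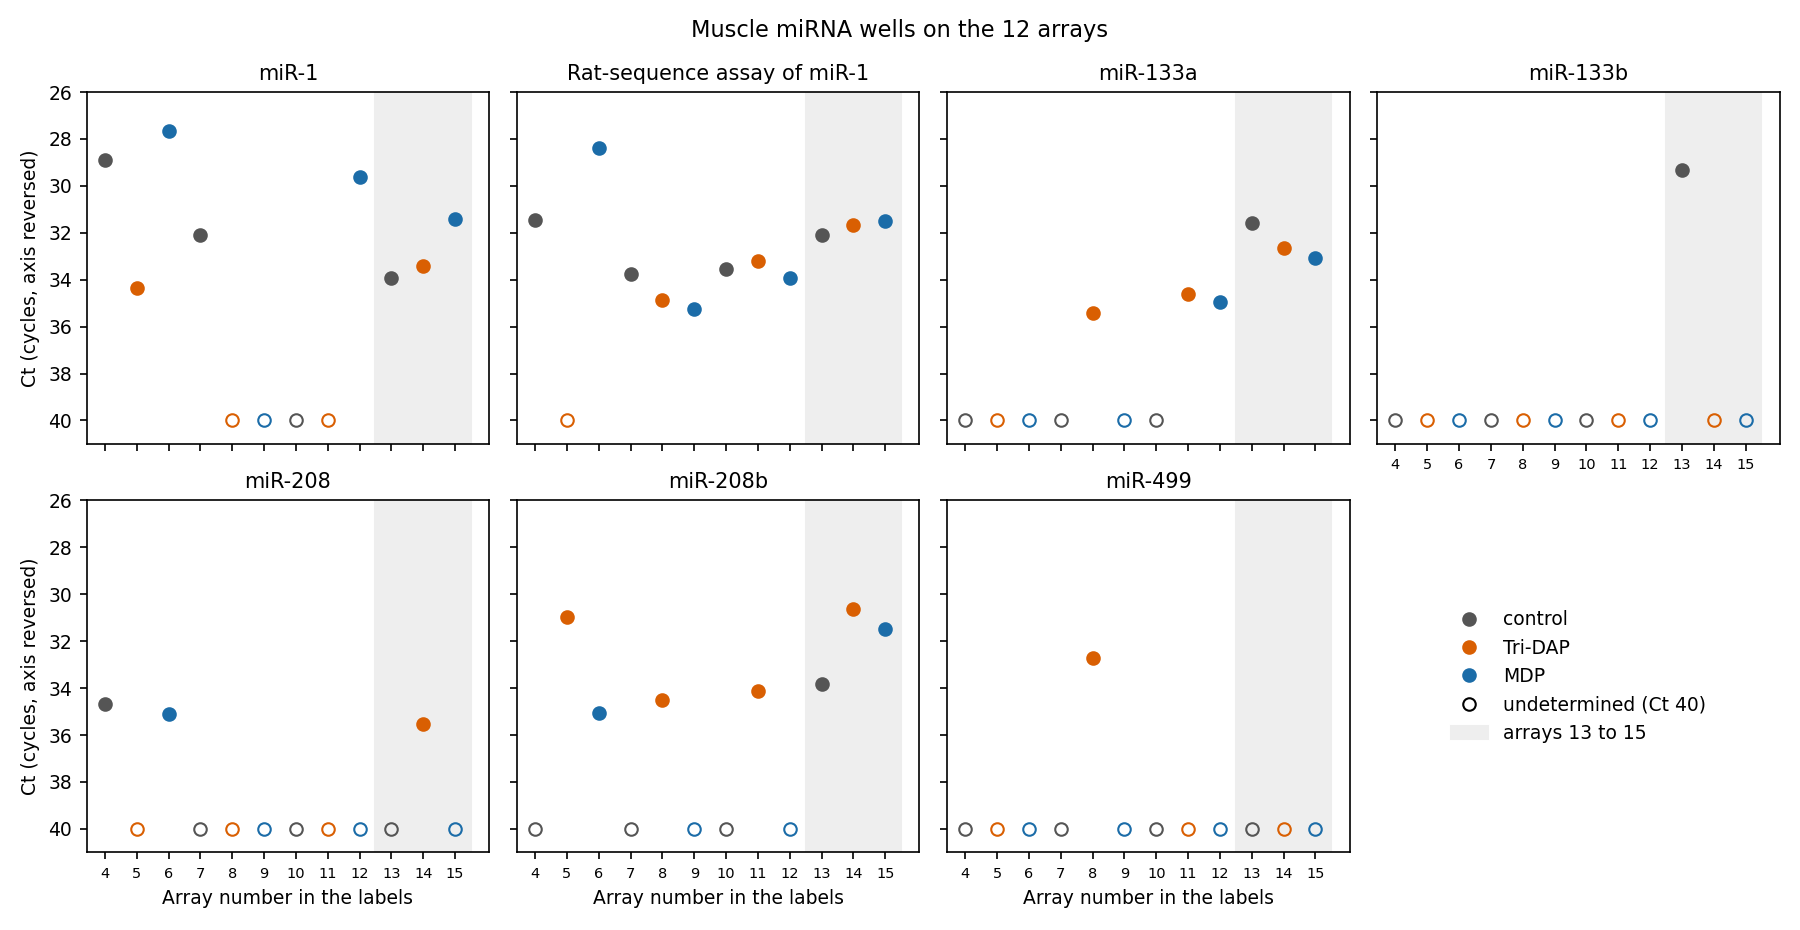
Ct of each well (cycles, axis reversed so that more RNA is higher) against the array number in the labels, for the 6 members and the rat-sequence assay of miR-1; filled points were measured and open points at 40 were undetermined. MiR-133b and miR-499 were each measured on 1 array, and miR-1, miR-133a and miR-208b were measured together on arrays 13, 14 and 15 (grey) and on no other array.

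MiR-1 had the earliest single well of the members and the widest range. In control cells its Ct was 28.9 on array 4, 32.1 on array 7 and 33.9 on array 13, and array 10 was undetermined. After Tri-DAP it was 34.3 on array 5 and 33.4 on array 14, and arrays 8 and 11 were undetermined. After MDP it was 27.7 on array 6, 29.6 on array 12 and 31.4 on array 15, and array 9 was undetermined. Every group thus held measured and undetermined wells, and the control wells alone spanned 5 cycles. The 8 measured wells covered 6.68 cycles, a 102-fold range, and their SD relative to U6 was 2.76. Among the 247 miRNA assays measured on at least 6 arrays, 3.64% had a larger SD, and the median SD was 1.08. The median Ct of miR-1 was 31.8. Of the 35 other assays with a median Ct within 0.5 cycles of it, 27 were measured on all 12 arrays and 3 on as few arrays as miR-1 or fewer, so that its 4 undetermined wells were unusual at this Ct. This was not so for miR-133a, miR-208b and miR-208. For these, 12 of 24, 15 of 23 and 24 of 47 such assays were measured on as few arrays or fewer. For miR-499 the count was 1 of 34.

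The levels of miR-1 relative to U6 were -9.08, -12.04 and -14.47 in control cells, -14.66 and -15.13 after Tri-DAP and -7.44, -10.91 and -11.72 after MDP. The Tri-DAP wells lay below the other measured wells, with array 5 -0.19 from control array 13, and the MDP and control wells overlapped. The mean was 4.87 higher after MDP than after Tri-DAP on the log2 scale (standard error 1.68; unadjusted p = 0.018 and adjusted p = 0.998 from limma). The measured wells of MDP and Tri-DAP did not overlap, though both groups also held undetermined wells, which are left out here. On the measured wells the two-sided exact permutation test gave p = 0.1, below which 3 wells against 2 cannot go. Against control, the difference was -3.03 after Tri-DAP (standard error 1.68, limma p = 0.11; exact permutation test p = 0.2) and 1.84 after MDP (standard error 1.50, limma p = 0.25; exact permutation test p = 0.4). Neither passed the unadjusted threshold of 0.05 in this fit. Both use the same control arrays. With each run of 3 label numbers (4 to 6, 7 to 9, 10 to 12 and 13 to 15, 1 array of each group in each) taken as a block, miR-1 was called after Tri-DAP against control, at -3.12, and MDP exceeded Tri-DAP by 5.31. With these blocks, 8 of 237 assays were called after Tri-DAP. The runs with a measured Tri-DAP well were arrays 4 to 6 and 13 to 15. In both, the order relative to U6 was MDP, control and Tri-DAP from high to low. By Ct the order did not hold in the second, where Tri-DAP array 14 (33.4) was earlier than control array 13 (33.9). In the run of arrays 7 to 9 only the control well was measured, and in that of 10 to 12 only the MDP well. The differences of miR-1 with blocks from Tri-DAP thus rest on the same 2 runs, and the order in them is no separate support. No source states that the arrays of a run share an isolation. The Ct of the mural miR-145 did not overlap between the runs, at 29.3 to 30.3, 31.8 to 33.1, 27.0 to 28.0 and 23.1 to 23.5.

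MiR-1 was the only member called between the ligands at an unadjusted p under 0.05, 1 of 3 members with at least 2 measured wells in both groups. Over the card, limma called 7 of 241 assays in this comparison, or 2.90%, and the measured values of 3.73% did not overlap between the groups. Against control, 1 member could be tested, miR-1, and 0 were called, where limma called 1.69% of all assays tested after Tri-DAP and 1.23% after MDP, and the methods' t-test called 0 members as well. The measured values of 3.80% of the assays tested did not overlap between Tri-DAP and control. The call of miR-1 between the ligands rested on single wells. Without MDP array 6 the difference was 3.58 and was no longer called. Without Tri-DAP array 5 or Tri-DAP array 14 a single Tri-DAP well was left and no test was made. With undetermined wells at Ct 40 the difference was 4.89 and was not called. Without control array 13, miR-1 was called after Tri-DAP against control, at -4.34, among 5 of 229 assays called.

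The card also holds an assay for the rat sequence of miR-1, rno-miR-1. The mouse and rat sequences were not compared, and how well this assay reads mouse miR-1 was not tested. This assay was measured on 11 arrays, all but Tri-DAP array 5, which is an array on which the mouse assay was measured. Its Ct was 31.4, 33.8, 33.5 and 32.1 on control arrays 4, 7, 10 and 13. It was 34.9, 33.2 and 31.7 on Tri-DAP arrays 8, 11 and 14, and 28.4, 35.3, 33.9 and 31.5 on MDP arrays 6, 9, 12 and 15. All groups overlapped. By the rat assay MDP exceeded Tri-DAP by 1.16 on the log2 scale (standard error 1.48, limma p = 0.45; two-sided exact permutation test p = 0.71), less than by the mouse assay. The 2 differences cover unlike arrays. Of the Tri-DAP arrays only array 14 was measured by both assays, and array 5, undetermined by the rat assay, was left out of its mean. On the 7 arrays where both were measured, the Ct of the mouse assay minus that of the rat assay ran from -4.30 on MDP array 12 to 1.82 on control array 13. Their Ct correlated with Pearson's r = 0.45 (exact permutation p = 0.33) and Spearman's rho = 0.54 (exact permutation p = 0.24), and Pearson's r was -0.59 without the 2 arrays farthest from the median of the mouse assay, so that the relation rested on those. Both assays were earliest on MDP array 6. Of the 4 arrays undetermined for the mouse assay, the rat assay read 33.2 to 35.3.

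**Figure D2:**
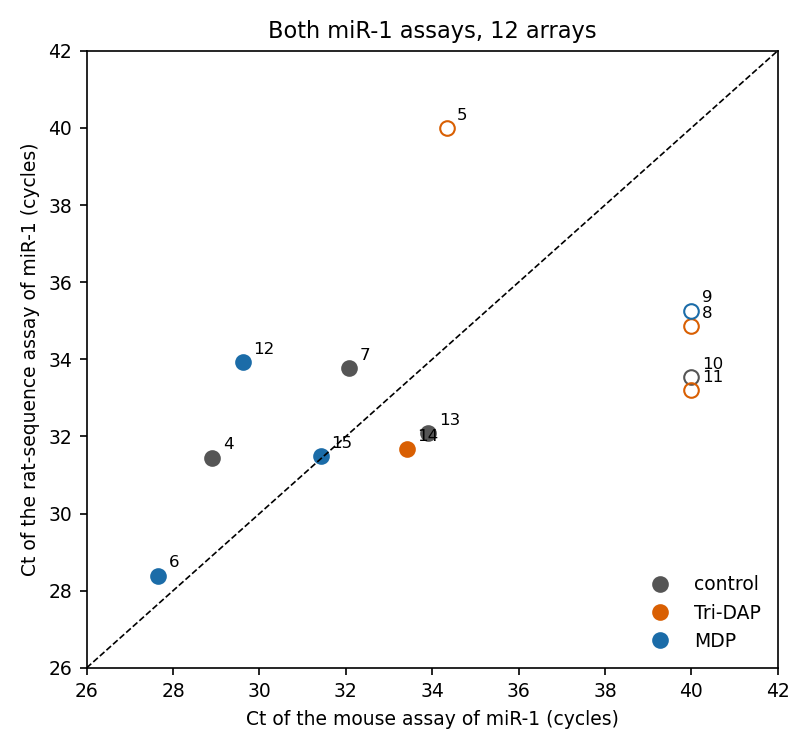
Ct of the rat-sequence assay against the Ct of the mouse assay of miR-1 (cycles) on each of the 12 arrays, numbered as in the labels; the dashed line marks equal Ct and open points have at least 1 assay undetermined, drawn at 40. The points scatter on both sides of the line, and 5 arrays were measured by only 1 of the 2 assays.

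MiR-133a, the partner of miR-1 on its transcripts, was measured on control array 13 at Ct 31.6, on Tri-DAP arrays 8, 11 and 14 at 35.4, 34.6 and 32.6, and on MDP arrays 12 and 15 at 34.9 and 33.1. The 3 earliest wells were those of arrays 13, 14 and 15, 1 from each group. The wells of both ligands overlapped, and relative to U6 MDP differed from Tri-DAP by -0.05 (standard error 1.19, limma p = 0.97; two-sided exact permutation test p = 1). With 1 control well, no level could be tested against control. Measured wells numbered 1 of 4 in control, 3 of 4 after Tri-DAP and 2 of 4 after MDP (two-sided Fisher's exact test against control, p = 0.49 and p = 1). MiR-133b was measured once, at Ct 29.3 on control array 13, which is 2.28 cycles earlier than miR-133a on that array. It was undetermined on arrays 14 and 15. Of the 22 other assays with a median Ct within 0.5 cycles of 29.3, 16 were measured on all 12 arrays, and none on only 1.

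The 3 members of the myosin genes were measured on 3, 7 and 1 arrays, and on no array were all of them measured. MiR-208, from the Myh6 gene of heart muscle, was measured late, at Ct 34.7 on control array 4, 35.1 on MDP array 6 and 35.5 on Tri-DAP array 14. These wells were 1 in each group, and the median Ct came earlier for 90.9% of the 320 assays with any measured well. MiR-499, from Myh7b, was measured at Ct 32.7 on Tri-DAP array 8 and nowhere else.

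MiR-208b, from the Myh7 gene of slow and fetal heart muscle, was measured on all 4 Tri-DAP arrays, at Ct 31.0, 34.5, 34.1 and 30.6 on arrays 5, 8, 11 and 14. In control cells it was measured on array 13, at 33.8, and after MDP on arrays 6 and 15, at 35.1 and 31.5. The counts of 4 of 4 after Tri-DAP and 1 of 4 in control gave p = 0.14 in a two-sided Fisher's exact test, the smallest p that 5 measured wells of 8 allow, so that this test could not pass 0.05. For comparison, 0.533% of all assays on the card, miR-208b and miR-375, had 4 measured Tri-DAP wells and at most 1 control well. This pattern was singled out after the values were seen. The measured levels of miR-208b relative to U6 were -11.29, -12.91, -15.56 and -12.35 after Tri-DAP and -14.85 and -11.79 after MDP, against -14.37 on control array 13. The measured levels overlapped between the ligands, with a difference of -0.30 (MDP minus Tri-DAP, standard error 1.36, limma p = 0.83; two-sided exact permutation test p = 0.93). With the undetermined wells set to Ct 40, miR-208b passed the unadjusted threshold after Tri-DAP, at 5.79 above control (standard error 2.11, adjusted p = 0.998 from limma), and MDP lay -3.96 from Tri-DAP, which was not called. At this setting, 8 of 375 assays passed the threshold after Tri-DAP.

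**Figure D3:**
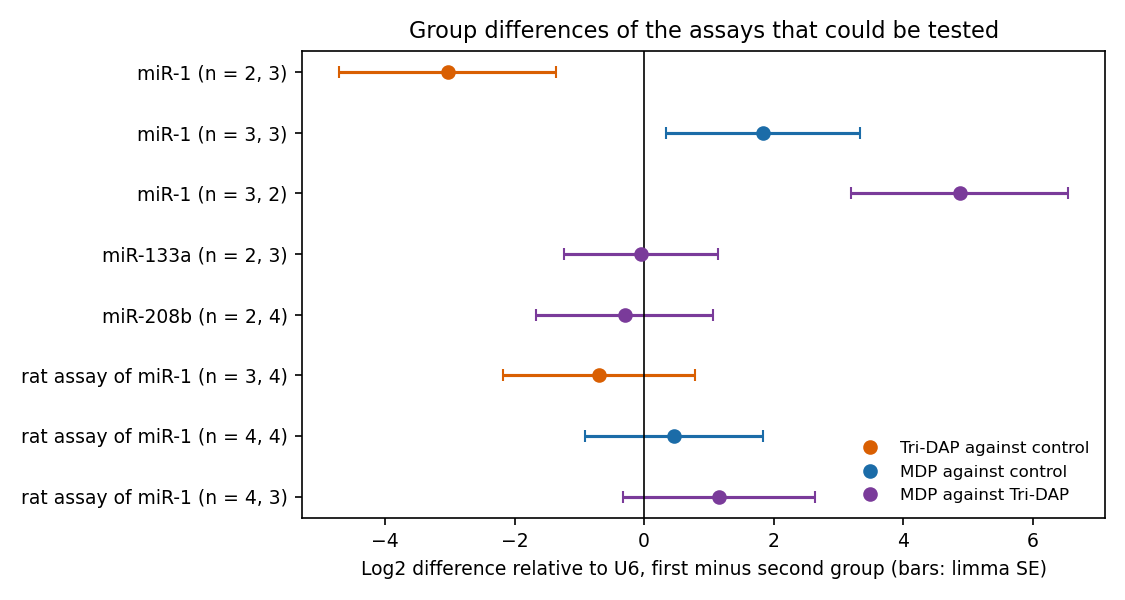
Log2 differences relative to U6 between the groups (first minus second group, with the number of measured wells in each) for the members and the rat-sequence assay of miR-1 that could be tested; bars are limma standard errors. The difference of miR-1 between MDP and Tri-DAP, 4.87, lies farthest from 0, and that of the rat-sequence assay is 1.16.

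MiR-1, miR-133a and miR-208b were all measured on arrays 13, 14 and 15, which hold 1 array of each group. On these 3 arrays 11 of 18 member wells were measured, or 61.1%, against 15 of 54, or 27.8%, on the other 9. For all miRNA assays the shares were 66.2% and 64.2%. The card holds 7 assays that were measured on all 3 of these arrays and on at most 4 of the other 9, and miR-133a and miR-208b are among them, beside miR-215, miR-382, miR-543, miR-496 and miR-547. Neither the labels nor the methods tie the 3 arrays together, and they were set apart after the values were seen, so that no test is given.

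The same arrays stood apart in miRNAs of smooth muscle and mural cells and, by Ct, in some miRNAs of epithelium. MiR-143, miR-145, miR-214 and miR-199a-3p were measured on all 12 arrays. MiR-145 had a Ct of 23.1 to 23.5 on arrays 13 to 15 and of 27.0 to 33.1 on the others, and miR-143 of 24.8 to 25.0 against 27.0 to 30.6. The summed level of the 4 relative to U6 was 0.0822 to 0.200 on arrays 13 to 15 and 0.00408 to 0.0204 elsewhere. By group it ranged from 0.00456 to 0.200 in control, from 0.00886 to 0.0822 after Tri-DAP and from 0.00408 to 0.192 after MDP. Both miR-126 assays were later on arrays 13 to 15, at 20.3 to 20.6 against 18.6 to 20.2 for miR-126-3p. Between 4 and 6 of 6 epithelial and 2 and 4 of 4 leukocyte miRNAs were measured per array, and the summed leukocyte levels overlapped between arrays 13 to 15 and the others. Of the epithelial miRNAs, 4 of 6 (miR-141, miR-200a, miR-200c and miR-429) had an earlier Ct on arrays 13 to 15 than on any other array. MiR-141 was at Ct 30.8 to 31.1 against 32.3 to 34.2, while miR-200c was at most 28.59 against at least 28.62. Relative to U6, array 14 fell among the other arrays for miR-141 (-12.77, against -12.61 on array 5), miR-200a (-10.99, against -10.07 on array 9) and miR-200c (-10.31, against -10.06 on array 11), and miR-429 stayed apart. The epithelial sum was 0.00313 to 0.00964 on arrays 13 to 15, 0.0191 on control array 4, where miR-200b had a Ct of 25.6, and at most 0.00252 on the other arrays. The red cell miR-451 was measured on 3 arrays, of which 2 were arrays 13 and 14. MiR-486, which muscle shares with red cells, was measured on control array 10 at Ct 31.0 and on control array 13 at 35.3. The part of these cell types in the muscle miRNA wells was not tested. Not all members followed these arrays, since the wells of miR-1 at Ct 27.7, 28.9 and 29.6 and the miR-208b well at 31.0 came from arrays 6, 4, 12 and 5.

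**Figure D4:**
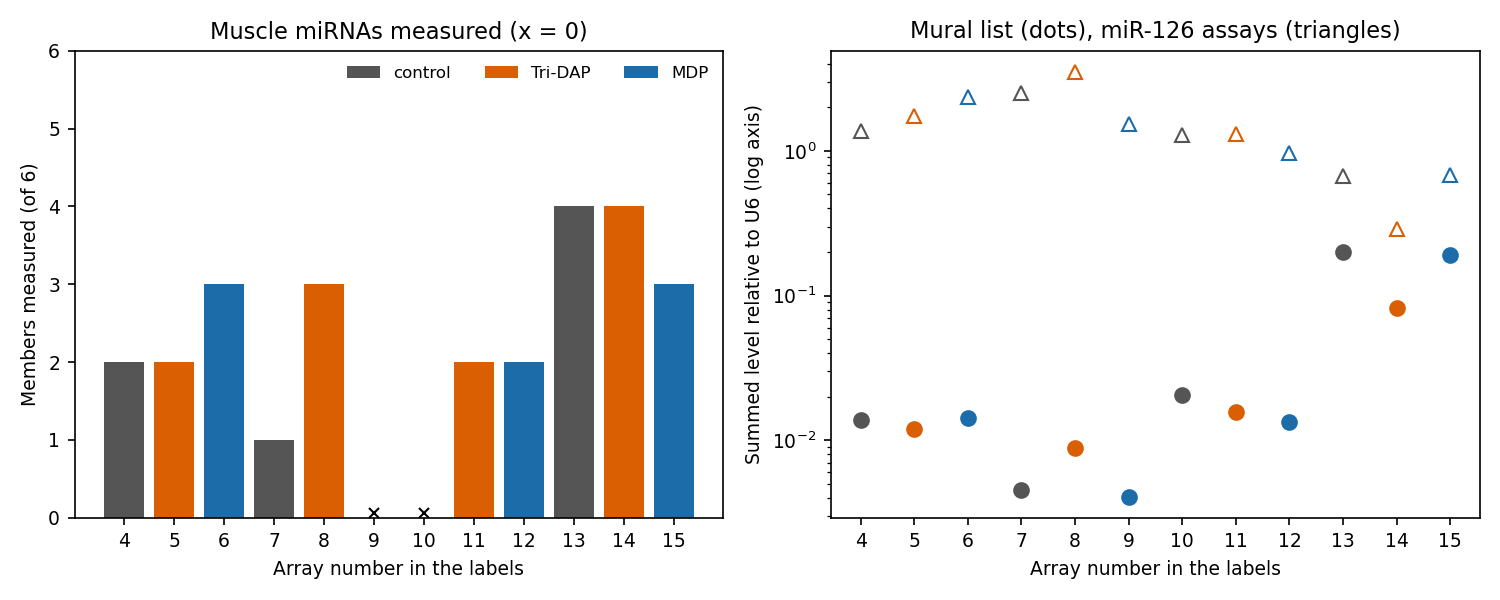
Left, number of the 6 members measured on each array; right, summed level relative to U6 (log axis) of the 4 smooth muscle and mural miRNAs (dots) and of both miR-126 assays (triangles), against the array number in the labels. The mural sum is 0.0822 to 0.200 on arrays 13 to 15 and at most 0.0204 on the others.

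Whether the members vary together could be asked only in part. Of the 15 pairs of members, none shared 6 measured arrays. MiR-1 and miR-133a were both measured on 4 arrays, miR-1 alone on 4, miR-133a alone on 2 and neither on 2. On the shared arrays their order differed, since on array 12 miR-1 was early (29.6) and miR-133a late (34.9), while on control array 13 miR-1 was late (33.9) and miR-133a early (31.6). MiR-133a and miR-133b were both measured on 1 array, miR-208 and miR-208b on 2, and miR-208 and miR-499 on none. MiR-133a and miR-208b were both measured on 5 arrays and neither on 4. With undetermined wells ranked last at Ct 40, the 3 pairs among miR-1, miR-133a and miR-208b were correlated over all 12 arrays. MiR-1 and miR-133a gave Spearman's rho = -0.03 and Pearson's r = -0.02 (permutation p = 0.92 and 0.94). The 4 arrays undetermined for miR-1 tied as farthest from its median, and r was 0.15 without 2 of them. Which 2 were left out was arbitrary, so that this r is no check on single arrays. MiR-1 and miR-208b gave rho = -0.09 and r = 0.01 (permutation p = 0.77 and 0.98), with r = 0.15 without the same 2 arrays. MiR-133a and miR-208b gave rho = 0.62 and r = 0.56 (permutation p = 0.038 and 0.065; Benjamini-Hochberg adjusted over the 3 pairs, 0.11 and 0.20). Without the 2 arrays farthest from the median of miR-133a, r was 0.42.

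Without arrays 13 to 15, over 9 arrays, rho was 0.31 for miR-133a and miR-208b (exact permutation p = 0.37), -0.28 for miR-1 and miR-133a (exact permutation p = 0.49) and -0.20 for miR-1 and miR-208b (exact permutation p = 0.62). For comparison, the median rho over all pairs of the 247 assays measured on at least 6 arrays was 0.15, with quartiles of -0.12 and 0.41, and over the pairs of the 73 assays measured on 6 to 11 arrays, as the members were, it was 0.04, with quartiles of -0.18 and 0.29. MiR-133a and rno-miR-1 were both measured on 6 arrays, and both were earlier on arrays 13 to 15 than on the others. The rat-sequence assay was at Ct 31.5 to 32.1 and miR-133a at 31.6 to 33.1 on arrays 13 to 15, against 33.2 to 34.9 and 34.6 to 35.4 on arrays 8, 11 and 12. These 6 arrays fall into 2 sets of 3, so that no correlation is given. Without arrays 13 to 15, miR-1 was left with 2 control wells, 1 Tri-DAP well and 2 MDP wells, its mean was 5.48 higher after MDP than after Tri-DAP, and no member could be tested between the ligands or between Tri-DAP and control.

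By Pearson's r over the levels relative to U6, the assays most like miR-1 among 207 compared were rno-miR-327 (r = 0.94, 6 arrays), miR-23a (0.87, 6 arrays), miR-337-5p, miR-467d and miR-423-5p (0.83, 0.83 and 0.80, 8 arrays each). Those most like miR-133a among 186 were miR-379, miR-140, miR-224, miR-495 and miR-28, with r from 0.92 to 0.96 over 6 arrays each, of which 3 are arrays 13 to 15. These are descriptions over few arrays that share the U6 reference. Only assays measured on more arrays than any member were compared, so that no member could be among them.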

How the data were processed

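Per the methods of the authors, 350 ng of total RNA went into reverse transcription and each card ran for 40 cycles. They deposited Ct values in cycles, and normalized values in cycles, a log2 scale, which are Ct minus the mean of the 4 U6 wells of the array (checked here on all wells, within 5.33e-15). The authors' table of fold changes holds their own comparisons and was not used, nor were 12 unnamed columns of the Ct table.

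The sign of the normalized values was turned, and wells at Ct 40 were set missing. A miRNA was tested with at least 2 measured values in both groups, in one fit of all 12 arrays with limma 3.58.1 in R 4.3.3, with the spread moderated over the assays tested and Benjamini-Hochberg adjustment over all of them. Calls are at an unadjusted p under 0.05. The fit was tested on simulated data, in which 50 of the assays measured on at least 6 arrays were raised by 2 on the log2 scale in MDP. Between the ligands it called 63.4% of the changed assays tested and 4.74% of the unchanged ones, so that changes of this size were often missed. Exact permutation and Fisher tests used scipy 1.17.1, and permutations over 12 arrays used 100000 resamples. Groups came from the treatment labels. The label numbers differ in every group and no source says which arrays share an isolation, so no pairing was used in the tests reported first, and runs of 3 consecutive numbers as a block were an alternative. A mean of levels with missing wells describes measured wells only.

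The members and lists were chosen with earlier results of these data known. Named were all members, the other striated muscle assays (miR-486 and rno-miR-1), the 5 assays most like miR-1 and miR-133a, and lists of endothelial, mural, epithelial, leukocyte and red cell miRNAs. The correlations planned on measured wells needed 6 shared arrays, which no pair had, so that ranks with undetermined wells at Ct 40 were used instead, a choice made after seeing the data, as were the use of the rat assay beside the mouse assay and the separation of arrays 13 to 15. As alternatives, wells were kept at Ct 40 or limited to Ct 35, and the reference, the number of values needed for a test, the groups fitted together and the test were changed, and each array was left out in turn. With 4 arrays a group, precision is limited by their number.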

Additional observations from a re-analysis of the deposited data

Results flagged for a closer look

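The 2 ligands' changes of miR-1 against their shared control differed at the unadjusted threshold and not after adjustment, by 4.87 on the log2 scale (MDP minus Tri-DAP, standard error 1.68, unadjusted p = 0.018 and adjusted p = 0.998 from limma), on 3 MDP and 2 Tri-DAP wells. The assay for the rat sequence of miR-1 gave 1.16 on 4 MDP and 3 Tri-DAP wells. The difference between both assays was not tested. The 3 groups of members or of the rat assay with 4 measured wells were examined for an array far from the others, and none was flagged. In 1 of them, the rat assay after MDP, array 6 was at -8.2 relative to U6, against -11.8 to -15.3 on the other arrays. Groups with fewer measured wells, as all those of the mouse assay of miR-1, were not examined.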

How the results depend on the processing

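Between MDP and Tri-DAP, miR-1 stayed higher after MDP in every alternative that could test it. It lost its call with undetermined wells at Ct 40 (4.89), by the methods' t-test (4.87) and with the rat-sequence assay (1.16, chosen after seeing the data), and ran from 3.58 to 5.72 with each array left out. Members called there numbered 0 at Ct 40 and by the t-test, and 0 to 1 with each array left out, where 0 includes 2 settings without enough wells. After Tri-DAP against control, 1 member was called at Ct 40 (miR-208b, among 8 of 375 assays called). With each run of 3 label numbers taken as a block, 1 was called (miR-1, -3.12, among 8 of 237 assays called). With each array left out, 0 to 1 were called (miR-1 from -4.34 to -1.64). MiR-1 after MDP against control was called in none, from 0.53 to 3.23 with each array left out, and 0 members were called in any. MiR-133a between the ligands changed sign with a Ct limit of 35 (0.42), with the blocks (0.42), with raw Ct (0.23) and against U6 and snoRNA202 together (0.19), and ran from -0.70 to 0.42 with each array left out. MiR-208b between the ligands was -3.96 at Ct 40 and -1.50 with the blocks, called in neither, and ran from -1.14 to 0.28 with each array left out. With a requirement of all 12 arrays, no member could be tested.

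The rank correlation of miR-1 and miR-133a was 0.070 relative to U6 and 0.067 with a Ct limit of 35, and ran from -0.15 to 0.13 with each array left out. For miR-1 and miR-208b it was 0.37 with group-centred values, and ran from -0.25 to 0.048. For miR-133a and miR-208b it kept its direction, at 0.34 to 0.50 relative to the references and 0.33 with group-centred values, and ran from 0.51 to 0.84 with each array left out. It was past the unadjusted threshold neither relative to any reference, nor group-centred, nor without 9 of the 12 arrays in turn.

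Over all assays after Tri-DAP, 8 of 375 were called at Ct 40, 7 of 237 with no normalization, 1 of 174 with all 12 arrays required and 8 of 237 with the blocks (1 to 12 with each array left out, 12 without Tri-DAP array 8). After MDP, 1 was called with a Ct limit of 35, 5 with the mean of the assays measured on all arrays, 1 with at least 3 values required, 0 in limma with all 12 arrays required, 5 with only the 2 groups, 1 by the t-test and 6 with the blocks (1 to 6). Between the ligands, 4 were called with a Ct limit of 35, 3 with at least 3 values, 0 in limma with all 12 arrays required and 4 by the t-test (2 to 17, 17 without Tri-DAP array 8). The cause of these changes was not tested.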
